A study of Mus musculus with 23 samples.

Results

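The levels of 10 genes, of the 36814 in the deposited tables, were followed across the retinoic acid time course of F9 cells: Pla2g7, Slc27a2, Tgm3, Enox1, Pim2, Clnk, Rasgrp2, Prickle1, Zfp608 and Vrtn. They were chosen by their measured counts for large falls in retinoic acid (RA) against 0 h. Each difference between an RA time and 0 h is therefore given as a description, with no test. Other genes fell more. Ranked from the lowest change, the members stood at 61 (Zfp608) to 1905 (Enox1) of 16155 genes at 6 h. At 48 h the first of them, Tgm3, stood at 19. Each symbol matched 1 Ensembl gene, and all 10 were among the 16155 genes that passed the filter on low counts. Picked as repressed early or deeply, all 10 lay below 0 h at 6 and 12 h, but 7 did so at 48 h.

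F9 is a mouse embryonal carcinoma line, a tumour-derived stem cell that turns toward extraembryonic endoderm in RA. Cells were given all-trans RA at 1e-07 M (molar) or, as controls, the solvent dimethyl sulfoxide (DMSO) at 0.001%. The 14 mRNA libraries were 4 taken at 0 h, 2 for each RA time (6, 12, 24 and 48 h), and a single DMSO library for 24 h and for 48 h, out of 23 samples in the series. No label says that libraries of a group came from separate cultures, so the spread between them may be technical, and all of them come from a single cell line. Levels are CPM (counts per 1000000 counts on genes), scaled by the TMM method. Changes are log2 fold changes from edgeR with an approximate standard error (SE).

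Libraries held 7.079 to 10.95 times 1000000 gene counts. By the percentage of counts assigned to no feature, the libraries fell into 2 sets of 7, 57.3 to 59.43% in set 1 and 52.51 to 53.77% in set 2. Set 1 holds the number 1 library of 0 h and of each RA time and both DMSO libraries, and set 2 the rest. The summed level of 7 embryonal carcinoma markers was 4230 to 5400 CPM at 0 h and 1110 to 1940 CPM at 48 h of RA, and 5440 and 5950 CPM in DMSO. Endoderm markers (6 of 6 found) summed to 49 to 136 CPM at 0 h, 1910 to 2860 CPM at 48 h of RA, and 103 and 111 CPM in DMSO. Fibroblast markers summed to 11.5 to 29.3 CPM at 0 h, most of it Thy1, and to 4 to 6.43 CPM at 48 h of RA. Only Thy1 was lower at 48 h, with means of 18.8 and 1.14 CPM. Higher means were held by Col1a1 (0.438 and 2.52 CPM), Dcn (0.0264 and 1.26), Lum (0.0233 and 0.209) and Col1a2 (0 and 0.0835). Blood cell markers (5 of 6 found) summed to at most 2.22 CPM in any library. Ptprc had 4 counts at 0 h and 0 in every RA and DMSO library. Itgam was found in every group, with means of 1.1 CPM at 0 h and 1.39 at 48 h of RA. In DMSO it held 0.278 and 0.518 CPM at 24 and 48 h. These levels rest on 42, 31, 2 and 4 counts summed over 4, 2, 1 and 1 libraries. In bulk RNA, fewer cells of a type and less RNA per cell cannot be told apart, and the part of the marker shift in the changes below was not tested.

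RA acts through receptors that sit on DNA as heterodimers with retinoid X receptors and bind paired half-sites such as AGGTCA. Ligand binding exchanges co-repressors for co-activators, and the best known direct targets are turned on. The genes followed here include lipid enzymes, a crosslinking enzyme, a cell surface oxidase, signalling proteins of blood cells, a planar polarity protein and a pair of nuclear proteins.

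Promoter windows are shown because a shared motif would be the most direct sequence feature of genes that move together. RefSeq windows on build GRCm38.p6, from 250 bases before to 50 bases after a start, were used for 9 of the 10 genes (13 windows). None was used for Zfp608. The half-site AGGTCA, searched on both strands, lay in 4 of these 13 windows and in 16.3% of all 32851 windows of that length. These were the windows of Slc27a2 (chr2:126552774-126553073, plus strand), Tgm3 (chr2:130012090-130012389, plus), Clnk (chr5:38876644-38876943, minus) and the most upstream window of Vrtn (chr12:84640769-84641068, plus). Capitals mark the half-site or its reverse complement, read 5′ to 3′ on the strand of the gene.
Slc27a2: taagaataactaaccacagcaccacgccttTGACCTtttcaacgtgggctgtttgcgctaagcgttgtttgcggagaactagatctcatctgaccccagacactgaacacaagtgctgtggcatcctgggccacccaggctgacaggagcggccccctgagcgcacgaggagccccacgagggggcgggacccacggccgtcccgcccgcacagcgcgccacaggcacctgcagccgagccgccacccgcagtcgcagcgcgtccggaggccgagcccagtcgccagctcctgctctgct
Tgm3: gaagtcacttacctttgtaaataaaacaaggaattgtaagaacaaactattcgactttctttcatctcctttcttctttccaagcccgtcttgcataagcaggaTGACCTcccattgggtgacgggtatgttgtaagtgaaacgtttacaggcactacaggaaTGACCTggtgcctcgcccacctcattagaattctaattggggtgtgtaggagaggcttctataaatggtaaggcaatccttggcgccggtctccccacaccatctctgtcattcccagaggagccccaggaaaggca
Clnk: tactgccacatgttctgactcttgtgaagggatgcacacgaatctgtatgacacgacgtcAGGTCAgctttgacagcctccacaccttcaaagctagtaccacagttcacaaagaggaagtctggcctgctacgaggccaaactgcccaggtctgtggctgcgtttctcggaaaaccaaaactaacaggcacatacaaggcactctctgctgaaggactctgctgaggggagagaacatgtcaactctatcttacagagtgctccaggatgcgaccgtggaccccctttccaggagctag
Vrtn: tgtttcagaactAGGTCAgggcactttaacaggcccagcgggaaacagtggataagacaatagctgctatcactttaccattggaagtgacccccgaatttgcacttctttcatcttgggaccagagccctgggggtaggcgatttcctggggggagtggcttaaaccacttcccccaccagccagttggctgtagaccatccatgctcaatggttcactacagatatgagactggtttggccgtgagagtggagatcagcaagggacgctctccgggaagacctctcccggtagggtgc
The half-sites start 220 bases before the start in Slc27a2, 146 and 87 in Tgm3, 190 in Clnk and 238 in Vrtn. Only Tgm3 held more than 1, which 1.81% of all windows do.

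A second motif is shown for Pim2, since octamer factors such as Oct4 bind ATGCAAAT. It was found, on either strand, in 1.74% of all windows and in 1 of the 13. The Pim2 window (chrX:7878056-7878355, plus strand) held it at 2 places, 202 and 123 bases before the start, as 0.107% of all windows do. Capitals mark the motif or its reverse complement.
Pim2: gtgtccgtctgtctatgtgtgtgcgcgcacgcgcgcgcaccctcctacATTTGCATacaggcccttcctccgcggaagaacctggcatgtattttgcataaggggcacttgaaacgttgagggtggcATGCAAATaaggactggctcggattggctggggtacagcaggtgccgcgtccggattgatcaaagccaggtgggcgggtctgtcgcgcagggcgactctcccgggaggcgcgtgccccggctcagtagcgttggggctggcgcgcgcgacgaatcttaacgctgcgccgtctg
The E-box CACGTG lay in 0 of the 13 windows and in 7.15% of all. GGGCGG, the GC box, lay in 8 of 13 windows and 35.7% of all, CCAAT in 5 and 37.4%, and TATAAA in 1 (Tgm3) and 13.6%. Letters in a window describe the sequence and do not show that a factor binds there.

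Every one of the 10 genes was lower at 6 and at 12 h than at 0 h, with both RA libraries below all 4 libraries at 0 h. That pattern was held by 8.23% of all tested genes at 6 h and 12.2% at 12 h, and nothing is read from the members' count because the choice used this contrast. At 24 h it held for 8 of the 10 (background 14.8%) and at 48 h for 7 (background 22.7%), while 2 genes, Prickle1 and Zfp608, lay above all 0 h libraries at 48 h (background 27.4%). Median log2 changes over the 10 genes were -2.29, -3.08, -3.36 and -3.91 at 6, 12, 24 and 48 h, beside -0.0056, 0, -0.0018 and 0.0094 over all tested genes. The members' range widened from -3.56 to -0.60 at 6 h to -5.89 to 2.64 at 48 h.

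**Figure D1:**
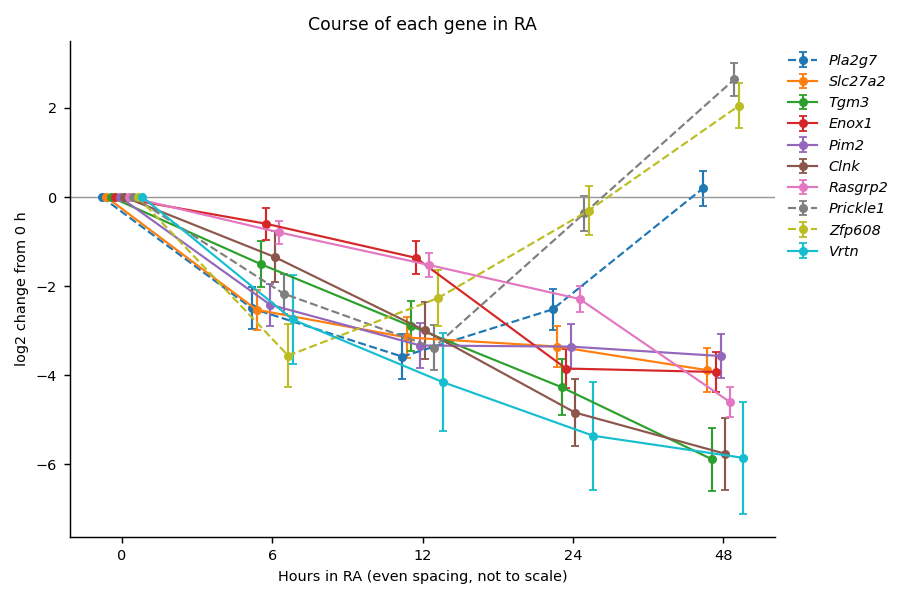
Log2 change from 0 h (vertical axis) of each gene at 6, 12, 24 and 48 h of RA (horizontal axis, evenly spaced), with bars of 1 SE from the edgeR fit. Solid lines show the 7 genes that stayed below 0 h and dashed lines the 3 that came back, of which Prickle1 reached 2.64 and Zfp608 2.05 at 48 h.

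**Figure D2:**
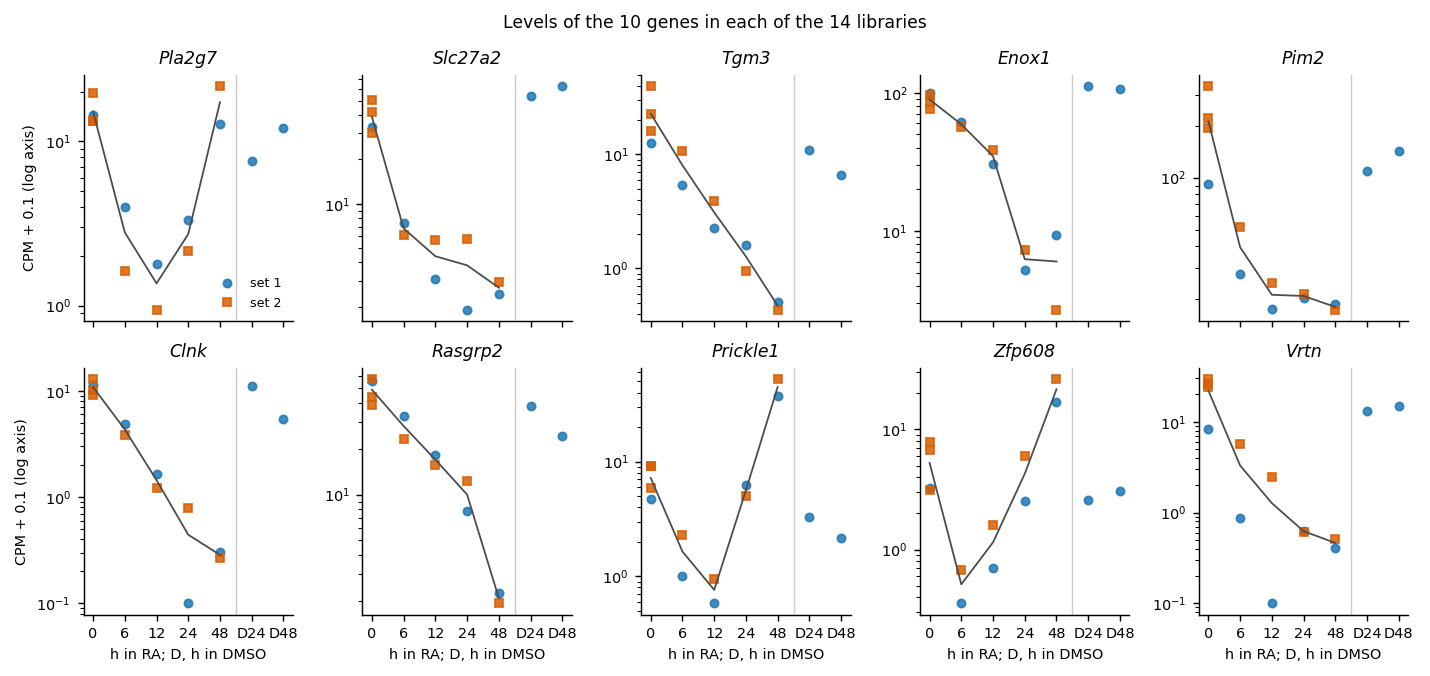
CPM plus 0.1 on a log axis in each of the 14 libraries, 1 panel per gene, with time in RA and, right of the grey line, DMSO (D) on the horizontal axis. Circles are libraries of set 1, squares those of set 2, and the line joins group means. In 4 panels (Tgm3, Pim2, Prickle1, Vrtn) the set 1 library is the lowest of the 4 at 0 h.

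Of the enzymes, both that act on lipids were low at 6 h, and their late courses were opposite. Slc27a2 (ENSMUSG00000027359), which imports very long chain fatty acids and joins them to coenzyme A, stood at 32.9, 41.7, 30.2 and 50.03 CPM in the 4 libraries at 0 h. In RA its number 1 and 2 libraries held 7.32 and 6.09 CPM at 6 h, 3.01 and 5.61 at 12 h, 1.81 and 5.64 at 24 h, and 2.36 and 2.84 at 48 h. All RA libraries lay below the lowest 0 h library, and 65.1% of the log2 depth at 48 h (-3.89 ± 0.49) had been reached at 6 h.

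Pla2g7 (ENSMUSG00000023913), a secreted hydrolase of platelet-activating factor, ran the other way after 12 h. At 0 h it held 14.4, 13.2, 19.5 and 13.1 CPM, at 6 h 3.86 and 1.52, and at 12 h 1.69 and 0.84. At 24 h it held 3.19 and 2.05 CPM and at 48 h 12.7 and 21.7 CPM. The 48 h libraries lay on either side of the 0 h range, a log2 change of 0.19 ± 0.40 after a low of -3.58 ± 0.51 at 12 h. From its lowest mean to 48 h the level was 13.7-fold higher.

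Tgm3 (ENSMUSG00000027401), a transglutaminase that crosslinks proteins of skin and hair, held 12.5, 22.3, 39.9 and 15.9 CPM at 0 h, a 3.19-fold spread between libraries. It then held 5.27 and 10.6 CPM at 6 h, 2.17 and 3.83 at 12 h, 1.49 and 0.86 at 24 h, and 0.41 and 0.33 at 48 h. Its log2 change was -1.51 ± 0.51 at 6 h and -5.89 ± 0.71 at 48 h, where it rests on 8 counts in both libraries. At 48 h Vrtn (-5.86 ± 1.26) and Clnk (-5.77 ± 0.81) differed from it by less than 1 SE, and with the set term Clnk (-5.77) lay below Tgm3 (-5.71). Keratinocyte markers were scarce, the 6 summing to at most 6.98 CPM in any library. Krt5 had 0 counts at 0 h, and most of the 0 h level was Krt10 (3.79 CPM, 144 counts). Lor went the other way from Tgm3, from 0.685 CPM at 0 h to 2.18 CPM at 48 h of RA.

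Enox1 (ENSMUSG00000022012), a hydroquinone oxidase of the cell surface, showed the smallest early change. Its 0 h libraries held 99.2, 75.9, 85.6 and 96.2 CPM and its 6 h libraries 61.4 and 56.5. By 12 h it held 30.6 and 38.6 CPM, by 24 h 5.11 and 7.18, and at 48 h 9.23 and 2.59. The log2 change was -0.60 ± 0.36 at 6 h, -1.37 ± 0.37 at 12 h and -3.85 ± 0.44 at 24 h. Between 12 and 24 h its share of the final log2 depth went from 34.7% to 98%.

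Among the signalling genes, Pim2 (ENSMUSG00000031155), a kinase of growth and survival, had the widest spread at 0 h with 91.7, 194.1, 339.7 and 219.6 CPM. Later libraries held 27.5 and 51.4 CPM at 6 h, 17.3 and 24.5 at 12 h, 20.1 and 21 at 24 h, and 18.5 and 17.1 at 48 h. At 12 h 93.4% of its deepest log2 change (-3.57 ± 0.50 at 48 h) was in place, and the means of 12, 24 and 48 h differed by less than the spread of the 12 h libraries (20.9 ± 5.06 CPM, SD, n = 2). With replicates 1 and 2 paired in a block, its log2 change at 12, 24 and 48 h was -2.74, -2.73 and -2.92.

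Clnk (ENSMUSG00000039315), an adaptor of immune receptor signalling, held 11.1, 9.04, 10.1 and 12.7 CPM at 0 h, then 4.75 and 3.71 at 6 h and 1.57 and 1.12 at 12 h. At 24 h the number 1 library had 0 counts, which allows up to 0.32 CPM (3 counts), and the number 2 library held 0.68 CPM. The 48 h libraries held 0.21 and 0.17 CPM, or 2 counts each. Its log2 change went from -1.35 ± 0.57 at 6 h to -5.77 ± 0.81 at 48 h, and the last values are limited by depth. Intervals and floors here cover counting error only.

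Rasgrp2 (ENSMUSG00000032946), an exchange factor that activates the small GTPase Rap1, was lower at each later time. Its libraries held 55.8, 43.3, 57 and 38.3 CPM at 0 h and 32.9 and 23.2 at 6 h. After 12, 24 and 48 h they held 18.2 and 15.5, 7.67 and 12.1, and 2.16 and 1.84 CPM. Log2 changes were -0.79 ± 0.26, -1.53 ± 0.27, -2.29 ± 0.29 and -4.60 ± 0.34 at the 4 times, and the largest step, -2.31 ± 0.33, lay between 24 and 48 h.

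Prickle1 (ENSMUSG00000036158), a LIM domain protein of planar cell polarity, held 4.66, 9.04, 8.96 and 5.74 CPM at 0 h. It held 0.90 and 2.19 CPM at 6 h and 0.48 and 0.84 at 12 h, returned to the 0 h range with 6.18 and 4.87 at 24 h, and stood at 36.9 and 52.1 CPM at 48 h. The low at 12 h (-3.38 ± 0.50) rests on 13 counts in both libraries, and the 48 h level (2.64 ± 0.36) on 984. Between its lowest time and 48 h the fitted level differed 64.9-fold.

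Zfp608 (ENSMUSG00000052713), a zinc finger protein, had its lowest level at an earlier time. At 0 h it held 3.16, 7.83, 6.64 and 3.02 CPM, at 6 h 0.26 and 0.57, and at 12 h 0.60 and 1.496. Its 24 h libraries held 2.45 and 5.90 CPM and its 48 h libraries 16.9 and 26.0 CPM. The lowest mean was at 6 h (-3.56 ± 0.71, 8 counts in all), the 24 h libraries lay within or just below the 0 h range (-0.30 ± 0.54), and at 48 h the log2 change was 2.05 ± 0.50.

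Vrtn (ENSMUSG00000071235), a DNA-binding protein known for its effect on vertebral number, differed most between library sets. Its set 1 library at 0 h held 8.27 CPM and those of set 2 29.3, 26.0 and 24.1. In RA the number 1 and 2 libraries held 0.77 and 5.61 CPM at 6 h, 0 and 2.34 at 12 h (a count of 0 allows 0.361 CPM), 0.53 and 0.51 at 24 h, and 0.31 and 0.42 at 48 h. The log2 change was -2.75 ± 0.99 at 6 h and -5.86 ± 1.26 at 48 h, with the widest SE of the 10 genes, and with a term for the set it was -2.51 ± 0.45 and -5.53 ± 0.63.

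By the time of the lowest mean, Zfp608 was lowest at 6 h, Pla2g7 and Prickle1 at 12 h and the other 7 at 48 h. Of those 7, Pim2, Slc27a2 and Vrtn had 70.9 to 93.4% of their final log2 depth at 12 h, Clnk and Tgm3 52% and 49.3%, and Enox1 and Rasgrp2 34.7% and 33.2%. Between 24 and 48 h Enox1 (-0.078 ± 0.445), Pim2 (-0.21 ± 0.49), Vrtn (-0.50 ± 1.42) and Clnk (-0.93 ± 0.94) differed by less than their SE. For these genes and Slc27a2 (-0.53 ± 0.49) the lowest time is not resolved. Final depth rests on 4 to 8 counts for Clnk, Tgm3 and Vrtn. The 3 genes lowest at 6 or 12 h were all higher at 48 h than at their lowest, by 3.78 (Pla2g7), 6.02 (Prickle1) and 5.61 (Zfp608) on the log2 scale.

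Libraries with the same number were also compared, since each pair lies within 1 set. At 6 and 12 h the difference from the 0 h library of the same number was below 0 for 10 of 10 genes in both numbers. These signs were fixed in advance, since both RA libraries lay below all 0 h libraries for every member. Only the size of the gap between numbers adds to that, with a median of 0.22 and 0.43 on the log2 scale. At 24 h the gap was 1.08, and Prickle1 had differences of opposite sign, 0.38 for number 1 and -0.85 for number 2. At 48 h the gap was 0.75, and Pla2g7 had opposite signs, -0.18 and 0.70, while Prickle1 (2.90 and 2.49) and Zfp608 (2.31 and 1.69) were above 0 h in both. The largest gaps were those of Clnk at 24 h (-5.17 and -3.22) and Vrtn at 24 h (-3.34 and -5.15). The Clnk gap rests on 0 and 8 counts in the 24 h libraries. For Vrtn the 24 h libraries were close (0.53 and 0.51 CPM), and the gap comes from 0 h libraries 1 and 2 (8.27 and 29.3 CPM).

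**Figure D3:**
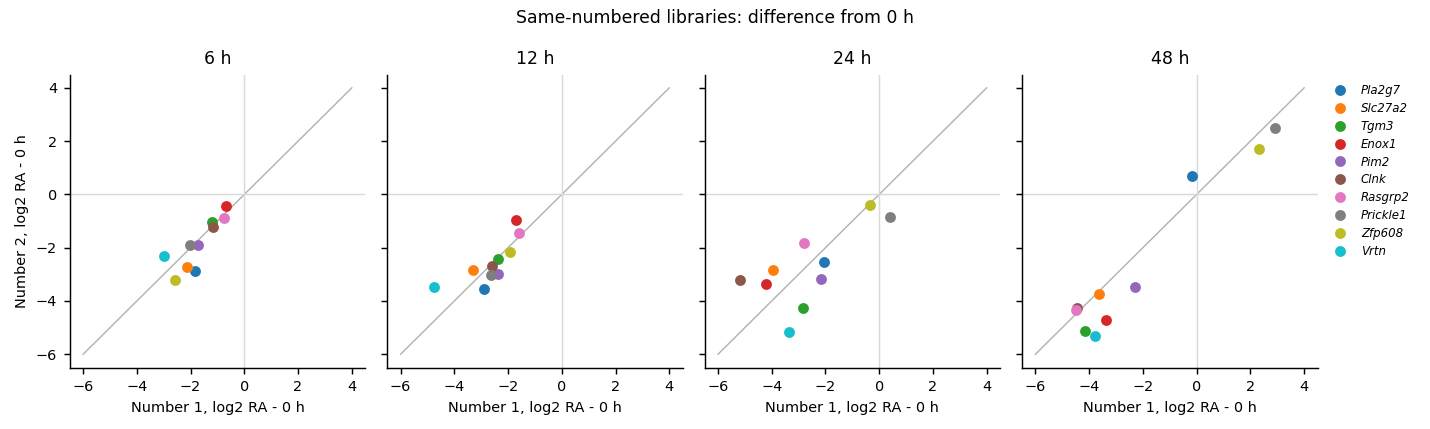
Log2 CPM (prior count 3) of an RA library minus that of the 0 h library with the same number, number 1 on the horizontal and number 2 on the vertical axis, 1 panel per time. Points on the diagonal have equal differences in both numbers, which is closest at 6 h (median gap 0.22) and least so at 24 h (1.08).

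Library sets gave a difference the choice did not use. With group and set in 1 edgeR quasi-likelihood fit, 3 of the 10 genes differed between sets, beside 42.1% of all tested genes. All 3 were higher in set 2 (background 22%): Vrtn by 1.89 ± 0.39 on the log2 scale (adjusted p = 0.0016), Zfp608 by 0.94 ± 0.28 (adjusted p = 0.0145) and Pim2 by 0.66 ± 0.24 (adjusted p = 0.0483). Vrtn was called under all 16 alternatives run and Zfp608 under 14, failing when either 24 h library was omitted (highest adjusted p = 0.0647). Pim2 was called under 3 of the 16, failing among others with DESeq2 and with either other filter (highest adjusted p = 0.209). The other 7 ranged from -0.18 (Enox1) to 0.71 (Tgm3) with adjusted p of at least 0.0895, but Tgm3 was called under 3 of the 16 alternatives (lowest adjusted p = 0.0326), Prickle1 under 2 (0.0232) and Slc27a2 under 1 (0.0441). The fitted RA changes of all 10 genes at the 4 times had the same sign with the set term as without it.

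Pooled DMSO libraries were tested against 0 h, a contrast that the choice did not use although it shares the 0 h libraries. A choice for falls from those libraries favours genes with high values in them. Changes below 0 in this contrast are therefore not independent of the choice. None of the 10 genes passed (0 of 10, edgeR quasi-likelihood, lowest adjusted p = 0.587), nor did any of the 16155 tested genes (0%), with 7.89% at an unadjusted p under 0.05 and 6 genes (0.0372%) called by DESeq2, none of them a member. Before adjustment 3 members lay under 0.05 in edgeR's test, namely Prickle1 at -1.46 ± 0.43 (adjusted p = 0.587), Tgm3 at -1.43 ± 0.51 (adjusted p = 0.587) and Rasgrp2 at -0.68 ± 0.26 (adjusted p = 0.587), all by edgeR. Slc27a2 (54 and 63 CPM at 24 and 48 h) and Enox1 (112.2 and 105.4 CPM) stood above all 4 libraries at 0 h in DMSO. Pla2g7, Tgm3, Rasgrp2, Prickle1 and Zfp608 stood below all 4 in both DMSO libraries. The share of all tested genes with either pattern was not counted, so nothing is read from how many members had it. In the fit 8 of 10 log2 changes were below 0 and 2 above, with a median of -0.676 beside -0.054 over all tested genes. How many of all tested genes lay below 0 was not counted either.

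Both DMSO libraries lie in set 1, where a single 0 h library can be set beside them. There Prickle1 held 4.66 CPM at 0 h against 3.20 and 2.07 in DMSO, Tgm3 12.5 against 10.9 and 6.48, Rasgrp2 55.8 against 37.9 and 24.2, and Pla2g7 14.4 against 7.52 and 11.9. Vrtn held 8.27 CPM against 13.1 and 14.8, and Pim2 91.7 against 109.7 and 142.7. With the set term in the model 0 of 10 genes were called as well.

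Set beside DMSO of the same hour, the RA libraries are again only described, since they took part in the choice. At 24 h both RA libraries lay below the DMSO library for 8 of 10 genes (background 31.2%) and above it for 1, Prickle1 (background 34.4%). At 48 h they lay below for 7 (background 37.8%) and above for 3 (background 41.1%). Slc27a2 differed by -3.84 ± 0.55 at 24 h and -4.59 ± 0.56 at 48 h, Enox1 by -4.18 ± 0.50 and -4.17 ± 0.51, and Clnk by -4.87 ± 0.84 and -4.75 ± 0.90. For Rasgrp2 the difference was -1.93 ± 0.35 and then -3.60 ± 0.37, over DMSO levels of 37.9 and 24.2 CPM that were themselves below all 0 h libraries. Prickle1 stood 0.78 ± 0.59 above DMSO at 24 h and 4.42 ± 0.69 above it at 48 h, and Zfp608 0.74 ± 0.81 and 2.85 ± 0.87. With the set term the 24 h differences were 0.56 ± 0.48 for Prickle1 and 0.16 ± 0.58 for Zfp608, whose set 1 library at 24 h of RA (2.45 CPM) lay just below the DMSO library (2.51 CPM). Vrtn differed by -4.61 ± 1.33 and -5.29 ± 1.37, and by -5.82 ± 0.71 and -6.53 ± 0.73 with the set term.

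**Figure D4:**
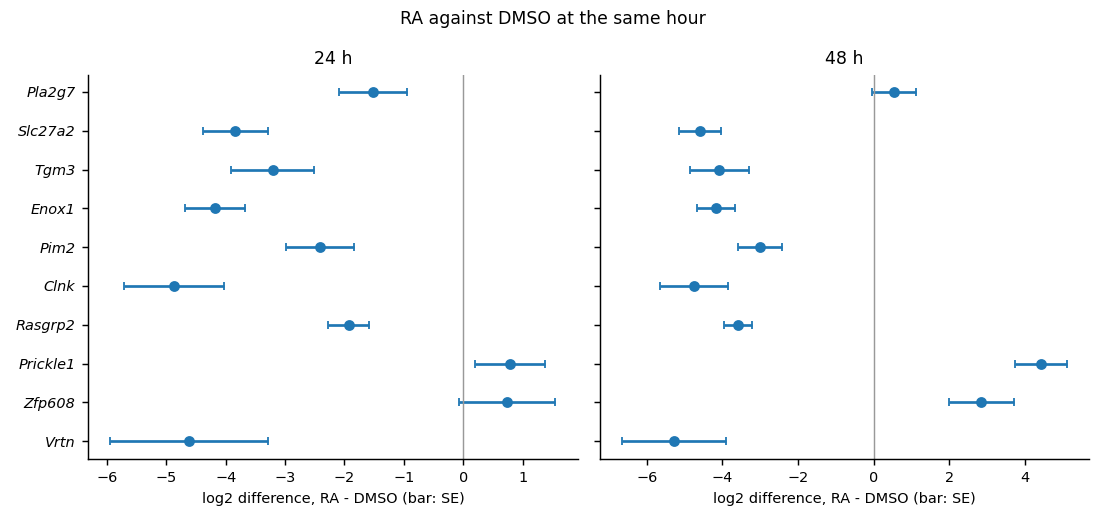
Log2 difference between RA and DMSO (horizontal axis, bars of 1 SE) for each gene, at 24 h on the left and 48 h on the right, from 2 RA libraries and 1 DMSO library at each time. In both panels 7 genes lie left of 0, while Prickle1 and Zfp608 lie right of 0 in both and Pla2g7 changes side from -1.52 to 0.53.

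Genes of the same families and pathways, listed by family and pathway but with earlier results of these data known, were tested against 0 h, 69 of 83 listed having passed the filter. By edgeR's quasi-likelihood test with Benjamini-Hochberg adjustment over all genes, 2 were higher and 1 lower at 6 h (background 1.47% higher and 0.192% lower). At 12 h 2 were higher and 1 lower (2.15% and 0.594%), and at 24 h 7 and 1 (8.08% and 4.26%). At 48 h 17 rose and 4 fell, 24.6% and 5.8% of the 69 beside a background of 17.5% and 12%. Their median log2 change was 0.30 at 48 h, against -3.91 for the 10 chosen genes and 0.0094 for all tested genes. With a set term 6 were higher and 3 lower at 6 h (background 4.1% and 1.51%), 9 and 5 at 12 h (7.38% and 5.31%), 11 and 5 at 24 h (15.5% and 13.5%), and 26 and 10 at 48 h (25.8% and 22.9%). The totals were 9, 14, 16 and 36, and with replicates 1 and 2 as a block 6, 15, 17 and 31. Leaving out 1 library gave 0 to 3, 0 to 4, 4 to 10 and 12 to 24, the lowest at 48 h without replicate 2 of that time.

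Of 11 tested close paralogs of the 7 genes that stayed low, 3 (Rasgrp3, Tgm2 and Slc27a3) rose at 48 h and 0 fell (background 17.5% and 12%). With the set term the same 3 were higher and 3 (Pim1, Pim3 and Tgm1) lower (background 25.8% and 22.9%). Rasgrp3, another Ras and Rap exchange factor, rose from 0.47 ± 0.12 CPM (SD, n = 4) at 0 h to 7.91 ± 3.81 at 24 h and 17.2 ± 2.30 at 48 h (n = 2), log2 changes of 4.02 ± 0.41 and 5.13 ± 0.41 (adjusted p = 0.000364 and 4.8e-05), while Rasgrp2 went to 2.00 ± 0.23 CPM. At 6 h Rasgrp3 had 0 counts against 18 at 0 h, a ratio with an exact 95% upper limit of 0.462, and its call (adjusted p = 0.0319) was lost with the block (adjusted p = 0.0997). Omitting any of 7 libraries (both of 6 h, both of 48 h, numbers 2 to 4 of 0 h) also ended it, with a highest adjusted p of 0.299. Rasgrp1 (-0.72 ± 0.84) and Rasgrp4 (0.17 ± 0.27) did not pass at 48 h. In the family of 13 tested genes Sipa1, a Rap1 GTPase-activating protein, rose by 1.45 ± 0.33 at 24 h (adjusted p = 0.017), and Rapgef1 fell by 1.05 ± 0.22 on the log2 scale at 48 h (adjusted p = 0.0058). Sipa1 no longer passed when the number 1 library of 24 h or number 2 or 3 of 0 h was omitted (highest adjusted p = 0.195), nor Rapgef1 when number 2 of 48 h was (0.0805).

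Tgm2, tissue transglutaminase, rose from 1.94 ± 0.53 to 38.1 ± 0.66 CPM at 48 h (4.30 ± 0.39, adjusted p = 5.82e-05), against 22.6 to 0.37 CPM for Tgm3. Tgm1 stood at -0.51 ± 0.46 and did not pass (adjusted p = 0.449), though it did with the set term (-0.85, adjusted p = 0.0407). Among fatty acid genes 5 of 11 rose at 48 h and 0 fell (background 17.5% and 12%), or 8 and 0 with the set term (background 25.8% and 22.9%). Slc27a3, a further member of the Slc27a2 family, rose by 1.13 ± 0.33 (adjusted p = 0.0274). Slc27a3 no longer passed when number 1 of 48 h or number 3 or 4 of 0 h was omitted (highest adjusted p = 0.279). Slc27a1 (0.38 ± 0.17) and Slc27a4 (0.19 ± 0.27) did not pass. The acyl-CoA synthetases Acsl3 and Acsl4 rose by 1.32 ± 0.16 and 1.36 ± 0.26 (adjusted p = 0.000306 and 0.0033). Cd36, a fatty acid receptor, had 1 count at 0 h and 43 at 48 h, a ratio of 73.5 (95% interval 12.5 to 2970), and its call (adjusted p = 0.0085) ended when number 2 of 48 h was omitted (adjusted p = 0.0604).

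Pim1, a kinase of the Pim2 family, rose at 6 h from 81 ± 40.6 to 281 ± 76.4 CPM (1.80 ± 0.35, adjusted p = 0.0317), when Pim2 stood at 39.5 ± 16.9 against 211.3 ± 101.9 CPM. Omitting either 6 h library or number 2, 3 or 4 of 0 h ended the Pim1 call (highest adjusted p = 0.357), and it held with the block (adjusted p = 0.000259). At 48 h Pim1 and Pim3 stood at -0.78 ± 0.38 and -0.39 ± 0.24 (adjusted p = 0.156 and 0.253), both called lower with the set term (adjusted p = 0.00104 and 0.011). In the list of Pim kinases and LIF, JAK and STAT3 genes, a pathway known to induce Pim kinases, 4 of 10 genes rose at 48 h and 0 fell (background 17.5% and 12%). With the set term 5 were higher and 2 lower (background 25.8% and 22.9%). Jak2 rose by 1.85 ± 0.31 (adjusted p = 0.00162) and Socs3, a feedback inhibitor, by 1.96 ± 0.46 (adjusted p = 0.0092). Socs3 depended on the number 2 library of 48 h (adjusted p = 0.0802 when omitted). Lifr, the LIF receptor, fell by 1.21 ± 0.25 on the log2 scale at 24 h (adjusted p = 0.0115), a call that ended when number 1 of 24 h was omitted (adjusted p = 0.0784). At 48 h Lifr stood on the other side of 0 h, at 0.66 ± 0.23 (157 ± 39.6 against 248 ± 0.19 CPM), which did not pass (adjusted p = 0.054) but was called higher with the set term (adjusted p = 0.0123).

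Among 17 planar polarity genes 4 rose and 2 fell at 48 h, or 23.5% and 11.8%, shares near the background of 17.5% and 12%. Prickle2 and Prickle3 were higher at 48 h like Prickle1, by 3.09 ± 0.37 and 2.10 ± 0.39 (adjusted p = 0.000255 and 0.00311), and neither was called at 6 or 12 h. Celsr3, an atypical cadherin of the same pathway, fell by 1.295 ± 0.31 on the log2 scale (adjusted p = 0.011), which ended when either 48 h library was omitted (highest adjusted p = 0.0669). Zfp609, the paralog of Zfp608, rose from 60.4 ± 11 to 103 ± 8.87 CPM (0.77 ± 0.18, adjusted p = 0.00903), but not when number 2 of 48 h was omitted (adjusted p = 0.0536).

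Close to the other genes, 1 of 6 partners of the Clnk adaptor family was called at 48 h (background 17.5% higher and 12% lower). It was the kinase Syk, which fell from 30.4 ± 5.42 to 9.59 ± 0.22 CPM (-1.67 ± 0.34, adjusted p = 0.0047). With the set term 1 partner was higher and 2 were lower (background 25.8% and 22.9%). The Clnk paralogs Blnk and Lcp2 had 20 and 3 counts in all 14 libraries and were not tested. Of 7 genes of platelet-activating factor metabolism 1 rose at 48 h and 0 fell (background 17.5% and 12%). It was Pafah1b3 (0.66 ± 0.23, adjusted p = 0.0491), a call that ended when any 1 of 10 libraries was omitted (highest adjusted p = 0.431). With the set term 3 of these genes were higher and 0 lower (background 25.8% and 22.9%). Pafah2 stood at 0.02 ± 0.24 and Enox2 at -0.20 ± 0.36.

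**Figure D5:**
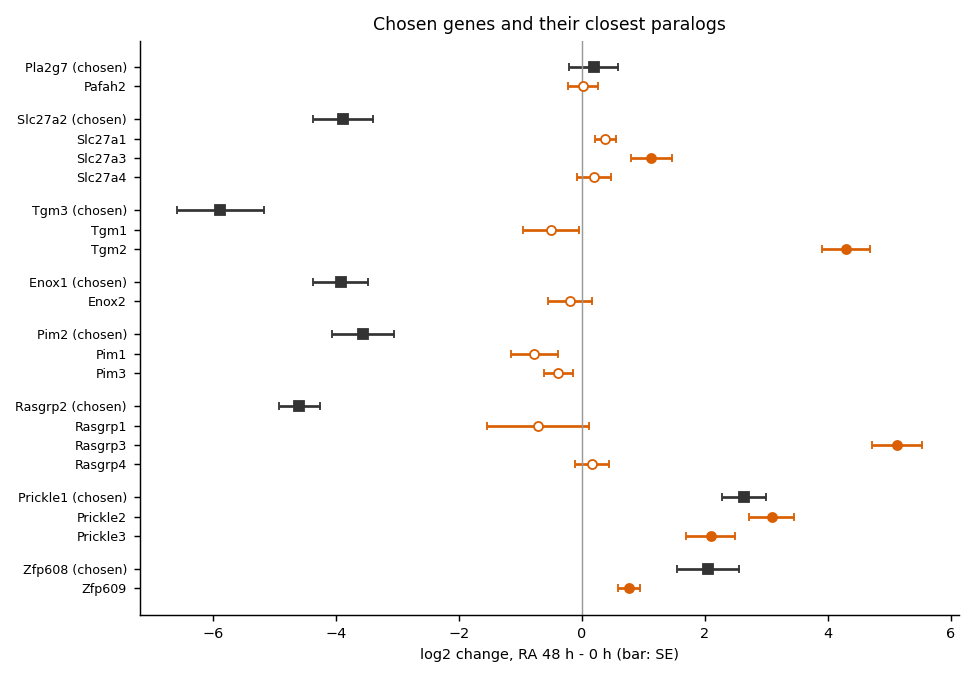
Log2 change between RA 48 h and 0 h (horizontal axis, bars of 1 SE) of 8 chosen genes (black squares) and their closest tested paralogs (circles, filled where called by edgeR at an adjusted p under 0.05). Rasgrp3 and Tgm2 lie at 5.13 and 4.30 while Rasgrp2 and Tgm3 lie at -4.60 and -5.89.

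No fixed threshold bounds the choice, so the nearest genes outside it are given as a description. Calls against 0 h only bound each pool below. They come from the contrasts that chose the members, so nothing is read from the members' calls or ranks. At 6 h, among 28 genes of at least 5 CPM at 0 h that were called lower with no overlap, Wnt5a (-2.90 ± 0.59), Magel2 (-2.82 ± 0.46) and Gm12688 (-2.49 ± 0.52) stood between Zfp608 and Prickle1, which had ranks 1 and 9. Of 92 such genes at 12 h, Wnt5a (-3.12 ± 0.60), Sema6a (-2.89 ± 0.57) and Fgf17 (-2.68 ± 0.62) stood nearest to the 6 members among the first 7. At 24 h Lef1 (-5.20 ± 1.49), Fst (-5.09 ± 1.13) and Evx1 (-4.59 ± 1.06) were in the first 6 of 633, and at 48 h Ccno (-6.80 ± 1.25) and Grhl2 (-6.05 ± 1.4) lay below Tgm3, at rank 3 of 1778.

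Genes with the most similar course were found by the distance in log2 change over 6 groups (4 RA times and 2 DMSO times), among 10711 genes of at least 5 CPM at 0 h. For Enox1 they were Chrna9 and Pcdh17, at distances of 0.46 and 0.67. Rasgrp2 lay nearest to Myb (0.84) and Foxi3 (1.06), Slc27a2 to Foxd3 (0.93) and Gm12688 (1.18), and Pim2 to Fgf17 (1.31) and Otx2 (1.42). Tgm3 lay nearest to Grhl2 (1.3) and Esrp1 (1.77), Vrtn to Evx1 (1.32) and Otx2 (2.28), Clnk to Evx1 (2.05) and Grhl2 (2.13), and Pla2g7 to Mycn (1.44) and Fgf5 (1.57). Prickle1 and Zfp608 shared Podxl as the nearest gene (1.80 and 1.64), whose log2 change was -2.40, -2.22, -1.22 and 1.79 at the 4 RA times. Within the 10 genes the closest were Clnk and Tgm3, at 1.48, then Pim2 and Slc27a2 at 1.95, and Vrtn and Prickle1 had their nearest members in Clnk (2.1) and Zfp608 (2.12). All these distances share the same 0 h libraries.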

How the data were processed

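The mRNA libraries of F9 cells were analysed from the deposited whole-number counts per Ensembl gene, 1 table per library. Per the submitters' processing notes, the tools used were TopHat2 2.0.7, HTSeq and DESeq on build mm9, with no role stated, and the strand setting of counting is not given in the sources used here, so reads of overlapping or antisense genes cannot be told apart. The 5 lines that name no gene, 72.52 to 76.78% of counts, were left out. Gene counts were 7.079 to 10.95 times 1000000 per library. Lists of peak regions were not used.

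From the counts, edgeR 4.0.16 (R 4.3.3) fitted all 14 libraries in 1 quasi-likelihood model with 1 term per group, TMM factors (0.9291 to 1.095) and a filter on low counts that kept 16155 genes. Groups of 1 or 2 libraries were thus assumed to vary like the others. Genes were called at a Benjamini-Hochberg adjusted p under 0.05 over all genes. SEs were obtained from the log2 change and the F statistic. Alternatives were DESeq2 1.42.0, other size factors and filters, a term for the library set (split at the largest gap in the percentage of counts assigned to no feature), a block for replicates 1 and 2, and leaving out each library. Within groups, deviations of replicates 1 and 2 correlated between all 10 pairs of groups (r of 0.66 to 0.792), so the block was taken as a pairing that comes from the data and not from the labels, and it follows the same split as the sets. The fit was tested on simulated data.

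The 10 genes, the lists and the library sets were chosen with earlier results of these data known. Named genes are the 10 members, the 2 nearest patterns per member and the closest paralogs. Also named, for each RA time, are the 3 other genes with the lowest called change. These had at least 5 CPM at 0 h and both RA libraries below all 0 h libraries. Per pathway list, up to 3 genes with the largest absolute change were named among those called at any RA time. Cell type markers were fixed lists. Promoter windows came from RefSeq (GRCm38.p6), whose coordinates were not related to the mm9 files. P-values measure only the spread between these libraries.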

Additional observations from a re-analysis of the deposited data

Results flagged for a closer look

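Prickle1 and Zfp608 were lower than 0 h in both libraries at 12 h of RA and higher in both at 48 h. For Prickle1 the log2 change was -3.38 at 12 h and 2.64 at 48 h. For Zfp608 it was -2.27 at 12 h and 2.05 at 48 h. The difference between the times was not tested, because these libraries chose the genes.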

How the results depend on the processing

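Related genes called at 6, 12, 24 and 48 h numbered 3, 3, 8 and 21. DESeq2 gave 5 and 7 at 6 and 12 h, the replicate block 6, 15 and 17 at 6, 12 and 24 h, the set term 9, 14, 16 and 36, and DESeq2 with the set term (chosen after seeing the data) 11, 15, 18 and 36. Of the calls made without the block, Rasgrp3 at 6 h was the only one lost with it. With 1 library left out the counts were 0 to 3, 0 to 4, 4 to 10 and 12 to 24. They were lowest at 6 h without replicate 2 or 3 of 0 h or either 6 h library, at 12 h without either 12 h library, at 24 h without replicate 3 of 0 h and at 48 h without replicate 2 of 48 h. The members' medians then ranged from -2.42 to -1.83 at 6 h (-1.83 without replicate 1 of 6 h), -3.26 to -2.92 at 12 h, -3.64 to -3.1 at 24 h and -4.31 to -3.7 at 48 h. Members called in DMSO stayed at 0, and members called between sets were 2 to 4. In DMSO against 0 h the sign turned for Vrtn with the set term (0.915, adjusted p = 0.657 by edgeR), with DESeq2 and the set term (0.917, adjusted p = 0.801) and in set 1 alone (0.75), for Pim2 in set 1 alone (0.448), and for Clnk without the DMSO 48 h library (0.0321, adjusted p = 0.994), against -1.02 without the DMSO 24 h library (both chosen after seeing the data). Of the members' RA changes 237 of 240 values moved by less than the replicate spread, and 460 of 480 with 1 library left out. These counts are a weak check. In part of the 480 the omitted library was of another RA time, so the change could hardly move. The spread, 1.18 on the log2 scale for Vrtn, also includes the difference between sets. The cause of the differences between settings was not tested. Depth limits Clnk, Tgm3 and Vrtn at 48 h and Zfp608 at 6 h, which rest on 4 to 8 counts.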
